A study of Mus musculus with 29 samples.

Results

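The genes of cholesterol synthesis and of its control by SREBP2 were followed in whole mouse liver. The set holds 27 genes, chosen by name from their role in the pathway and found by symbol among the 55421 genes of the count table. The choice was made with earlier results of these data known, so the counts describe these mice and are not a new test of the pathway. They comprise 8 genes of the mevalonate steps and 12 of the squalene and sterol steps. Another 4 belong to sterol sensing, and 3 move sterol or act on its uptake. The sensing genes are Scap, Insig1 and Insig2, with Srebf2, the gene of the factor they control. PolyA RNA was sequenced from livers of 3 groups per sex, named young vehicle, old vehicle and old HDM201. The old females were 20 months and the old males 24 months of age, both C57BL/6J, and the young mice were C57BL6/N of 5 months. Age therefore cannot be told apart from substrain, and among old mice sex cannot be told apart from the age gap between females and males. HDM201 blocks the binding of MDM2, the ubiquitin ligase that holds p53 low, to p53. It was given by oral gavage at 10 mg/kg daily for 14 days, and the other groups received the methylcellulose vehicle. Counts covered 5 young vehicle, 4 old vehicle and 5 old HDM201 females, and 4, 4 and 5 males of the same groups. Each library was 1 mouse, and because whole liver was used, fewer cells of a type and less RNA per cell cannot be told apart.

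Cholesterol is built from acetyl-CoA. The mevalonate steps give isoprenoid units, squalene is then made and closed into the first sterol ring, and a chain of enzymes of the endoplasmic reticulum trims that ring to cholesterol. When sterol in the endoplasmic reticulum is low, SCAP escorts the membrane-bound factor SREBP2 to the Golgi, where it is cut, and the freed part enters the nucleus and switches on the genes of the pathway. When sterol is plentiful, the INSIG proteins hold SCAP back. The liver is a main site of cholesterol synthesis, and the pathway there follows feeding and time of day.

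SREBP2 binds sterol response elements, often next to a CCAAT box, the site of the factor NF-Y. RefSeq promoter windows of GRCm38.p6, from 250 bases before to 50 bases after the start of a gene, were found for 23 of the 27 genes. The element core, TCACNCCAC on either strand, lay in the windows of 1 of these 23 genes, Hmgcs1, and in 1.44% of all 27018 genes with a window. Its looser form, CACNCCAC, which is part of the core, was found in 3 genes (Hmgcs1, Acat2 and Insig1) and in 7.12% of all genes. CCAAT lay in 21 of the 23 genes, all but Acat2 and Scap, against 41.1% of all genes. It lay in 10 of the 11 genes that passed the test with HDM201 in old females and in 11 of the 12 that did not. Its distance from an element was not examined. A match is a description of letters in this window, and elements outside it were not searched. The 250 bases before the RefSeq start are shown for 3 genes, with matches in capitals (ATTGG is CCAAT on the opposite strand). In the GENCODE annotation Idi1 starts at 8885501 and Insig1 at 28071363, inside the stretches shown. Both marked CCAAT boxes of Idi1 lie after that start. Hmgcs1 held the core, Idi1 showed the highest fold change with HDM201 in females, and Insig1 held the looser form but did not pass the test with HDM201. Idi1 and Insig1 were picked for display after their values were seen.
Hmgcs1, chr13:119690101-119690350, plus strand: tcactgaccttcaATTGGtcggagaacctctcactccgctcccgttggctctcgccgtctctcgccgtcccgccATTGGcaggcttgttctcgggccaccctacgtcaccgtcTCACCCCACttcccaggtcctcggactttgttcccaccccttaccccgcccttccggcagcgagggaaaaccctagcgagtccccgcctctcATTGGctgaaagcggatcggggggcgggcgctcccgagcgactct
Idi1, chr13:8885356-8885605, plus strand: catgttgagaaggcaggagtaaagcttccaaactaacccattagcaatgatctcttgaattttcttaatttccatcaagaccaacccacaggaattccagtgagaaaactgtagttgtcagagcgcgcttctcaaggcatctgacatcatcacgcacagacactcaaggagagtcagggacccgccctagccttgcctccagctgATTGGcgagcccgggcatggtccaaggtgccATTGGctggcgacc
Insig1, chr5:28071162-28071411, plus strand: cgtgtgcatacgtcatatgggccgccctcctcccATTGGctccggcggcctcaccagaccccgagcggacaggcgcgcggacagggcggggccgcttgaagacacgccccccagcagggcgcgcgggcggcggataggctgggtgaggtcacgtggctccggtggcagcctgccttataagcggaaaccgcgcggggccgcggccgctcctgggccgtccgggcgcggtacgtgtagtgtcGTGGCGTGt

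Total counts ran from 16485900 to 23570458 per mouse, and the 27 genes took 0.306 to 0.609% of them. Of the 27 genes, 13 overlap another annotated gene, and since the strand setting of the counting is not given, reads of such neighbours cannot be told apart. All 27 genes passed the filter on low counts in each comparison. Hepatocyte markers (9 found, among them Alb and Apoa1) summed to between 90300 and 173000 CPM (counts scaled by library size) in every mouse, while pancreas markers stayed between 0 and 0.109 CPM, so the libraries carried the markers of liver. Where fold changes are given, they come from edgeR's quasi-likelihood test, with the false discovery rate (FDR, Benjamini-Hochberg) taken over all genes tested, and a gene is said to rise or fall where its FDR was under 0.05.

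Levels of different genes were compared per kb of exon, merged over all annotated transcripts of a gene. By this measure the highest of the 27 genes over all mice was Insig1, a protein that retains SCAP, at 151 CPM per kb. Sc5d, a late sterol desaturase, was at 150 CPM per kb. Ebp, the sterol isomerase, followed at 117 CPM per kb and Hmgcs1, which makes HMG-CoA, at 81.7. Srebf2, the gene of SREBP2 itself, was at 12.7 CPM per kb. Lbr, Mylip and Ggps1 were lowest, at 3.38, 2.98 and 2 CPM per kb. Mylip codes for a ubiquitin ligase that marks lipoprotein receptors for degradation, and Ggps1 makes geranylgeranyl diphosphate for protein prenylation rather than sterol. The order of Insig1 and Sc5d changed with the group. Insig1 was at 162 and Sc5d at 191 CPM per kb in young vehicle females, against 177 and 132 CPM per kb in old vehicle females. The difference between these 2 genes was not tested.

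The mean log2 CPM of the 27 genes gives each mouse 1 summary level. It was 7.07 ± 0.13 (SD, n = 5) in young vehicle females, 6.57 ± 0.09 (n = 4) in old vehicle females and 6.96 ± 0.05 (n = 5) in old HDM201 females. Every old vehicle female lay below every other female. In males it was 6.61 ± 0.28 (n = 4) in young vehicle, 6.65 ± 0.06 (n = 4) in old vehicle and 6.59 ± 0.34 (n = 5) in old HDM201 mice. The 3 male means were close to each other, and the spread between mice was wide in young vehicle and old HDM201 males.

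**Figure D1:**
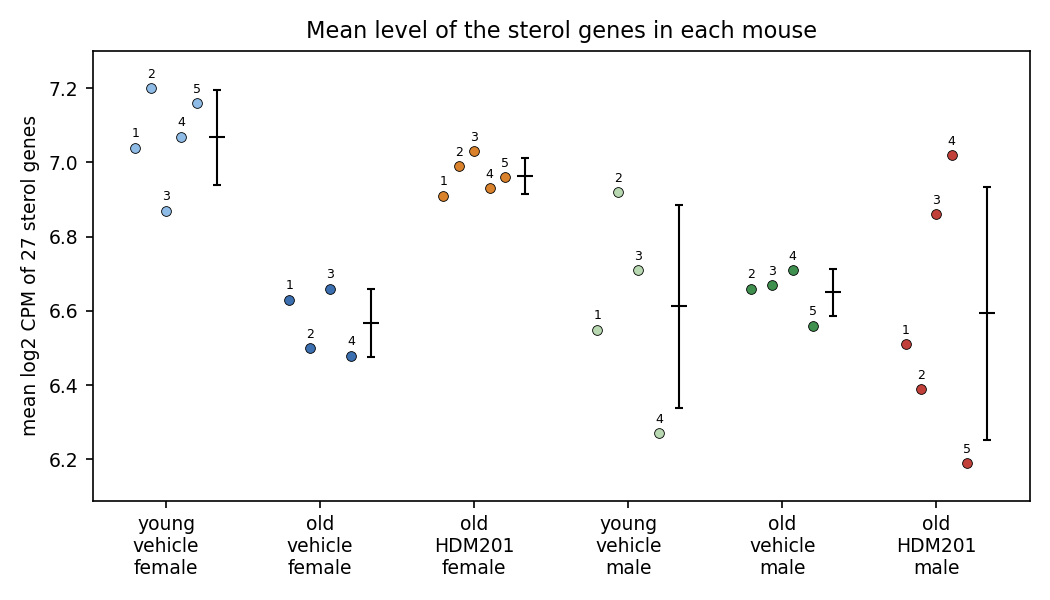
Mean log2 CPM of the 27 sterol genes in each mouse, by group, with the mouse number above each point and the group mean ± SD to its right. The 4 old vehicle females (6.48 to 6.66) lie below the 5 old HDM201 females (6.91 to 7.03), while the 5 old HDM201 males run from 6.19 to 7.02 around the old vehicle males.

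With HDM201 in old females, 15 of the 27 genes rose and none fell, beside 2.35% of all 14445 genes that rose and 2.9% that fell. Their median log2 fold change was 0.37, against 0.00 over all genes tested, and 24 of the 27 were above 0. Genes of the mevalonate steps (6 of 8) and of the squalene and sterol steps (8 of 12) made up most of the rise. None of the 4 sensing genes passed, and 1 of the 3 transport genes did. In 16 of the 27 genes every HDM201 female was above every vehicle female, against 5.91% of all genes.

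Of the mevalonate steps, Idi1 (ENSMUSG00000058258.14, chr13:8885501-8892451), which interconverts the isoprenoid units, rose most. It read 62.6, 53, 72.7 and 54.2 CPM in the old vehicle females and 106, 121, 131, 118 and 115 CPM in the HDM201 females. The groups did not overlap, and the log2 fold change was 0.94 ± 0.095 (SE, FDR = 0.00239). Hmgcs1 (ENSMUSG00000093930.2, chr13:119690379-119708260) read 378, 302, 334 and 307 CPM with vehicle and 557, 573, 563, 615 and 475 CPM with HDM201. All 5 treated mice were above the highest vehicle mouse, with a log2 fold change of 0.73 ± 0.091 (SE, FDR = 0.00556). Mvk, the mevalonate kinase, read 24.2, 17.6, 22.6 and 23.8 CPM with vehicle and 35.1, 34.1, 33.8, 31.2 and 28.9 CPM with HDM201, again without overlap (log2 fold change 0.55, FDR = 0.0123).

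Fdps, which makes farnesyl diphosphate, read 232, 197, 247 and 199 CPM with vehicle and 291, 318, 354, 270 and 298 CPM with HDM201 (log2 fold change 0.47, FDR = 0.0188). Acat2, a thiolase at the entry of the pathway, read 104, 99.6, 103 and 78.8 CPM and then 109, 158, 147, 119 and 140 CPM (0.46, FDR = 0.04). Mvd, the decarboxylase of mevalonate diphosphate, read 51.1, 48.3, 41.7 and 47.4 CPM and then 68.2, 61.9, 62.7, 57.2 and 59.4 CPM (0.37, FDR = 0.0198). In all 3 genes the treated mice were above the vehicle mice, by smaller steps than for Idi1. Acat2 has a near-identical neighbour, Acat3, so its counts are uncertain. Pmvk, the kinase after Mvk, had a log2 fold change of 0.21 (FDR = 0.127), and Ggps1 one of -0.04 (FDR = 0.868).

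Of the sterol steps, Fdft1 (ENSMUSG00000021273.11), the squalene synthase that commits the pathway to sterol, read 164, 144, 152 and 145 CPM with vehicle and 265, 232, 254, 226 and 239 CPM with HDM201. The lowest treated mouse was well above the highest vehicle mouse, and the log2 fold change was 0.67 ± 0.07 (SE, FDR = 0.00239). Sqle, the squalene epoxidase, read 136, 119, 130 and 113 CPM and then 155, 156, 195, 142 and 159 CPM, which separated the groups narrowly (0.35, FDR = 0.0469). Lss, which closes the sterol ring, read 106, 106, 108 and 82.1 CPM and then 132, 164, 193, 147 and 182 CPM (0.68, FDR = 0.0101). Cyp51, the demethylase that follows, read 197, 164, 213 and 162 CPM and then 289, 309, 354, 292 and 286 CPM (0.71, FDR = 0.00561). Neither Lss nor Cyp51 had a treated mouse within the vehicle range.

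The enzymes that take methyl groups off the ring rose together. Msmo1 (ENSMUSG00000031604.10, chr8:64718139-64733792), the sterol methyl oxidase, read 113, 81.5, 132 and 99.4 CPM with vehicle and 201, 195, 205, 193 and 180 CPM with HDM201 (log2 fold change 0.86 ± 0.11 SE, FDR = 0.00556). Its partner Nsdhl, a sterol dehydrogenase, read 71.7, 66, 76.1 and 64.7 CPM and then 98.1, 108, 127, 101 and 111 CPM (0.63, FDR = 0.00556). Hsd17b7, the ketoreductase of the same complex, read 63.8, 48.9, 68.3 and 52.8 CPM and then 90.8, 77.5, 95.3, 107 and 101 CPM (0.67, FDR = 0.00999). All 3 were free of overlap between the groups. Dhcr7, which acts at the end of the pathway, read 131, 131, 151 and 121 CPM with vehicle and 162, 224, 221, 180 and 217 CPM with HDM201 (0.57, FDR = 0.0127).

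Not every enzyme of the chain passed the test. Ebp had a log2 fold change of 0.03 (approximate 95% interval -0.10 to 0.17). The sterol reductases Tm7sf2 and Lbr had 0.01 (-0.19 to 0.22) and -0.04 (-0.22 to 0.14). For Ebp, Tm7sf2 and Lbr alike, the interval lies below the fold change of each of the 15 genes that rose. Those 15 were picked by the same test and carry errors of their own. Sc5d had 0.33 and missed the threshold (FDR = 0.0642).

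The sensing genes did not pass. Srebf2 read 112, 102, 118 and 111 CPM in old vehicle females and 104, 113, 132, 129 and 109 CPM in HDM201 females, with overlapping groups and a log2 fold change of 0.07 (-0.09 to 0.22, FDR = 0.67). Insig1 read 579, 555, 493 and 561 CPM and then 529, 574, 592, 572 and 640 CPM, also overlapping (0.07, -0.08 to 0.22, FDR = 0.654). Insig2, the second INSIG, had 0.18 (FDR = 0.618), and Scap 0.37 (FDR = 0.0575), although its groups did not overlap. Of the transport genes, Stard4, which carries cholesterol between membranes, read 94.6, 89.3, 112 and 83.7 CPM with vehicle and 115, 130, 128, 124 and 146 CPM with HDM201 (0.42, FDR = 0.0276). Its groups were separate. Tmem97, a sterol-binding membrane protein, had 0.31 (FDR = 0.0741) and Mylip -0.32 (FDR = 0.312).

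The rise in females was not equally firm across genes. For the alternatives that follow, the share of all genes called is not given here. Without old vehicle female 2 the test called 9 of the 27 genes, and with all 6 groups in 1 fit, which shares the spread of the males, it called 2, Idi1 and Hsd17b7, at a median of 0.38. Of the 17 alternatives, of which 15 could be run on Mvd, Sqle lost its call in 14, Acat2 in 12 and Stard4 in 10, while Idi1 and Hsd17b7 held theirs in all 17.

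**Figure D2:**
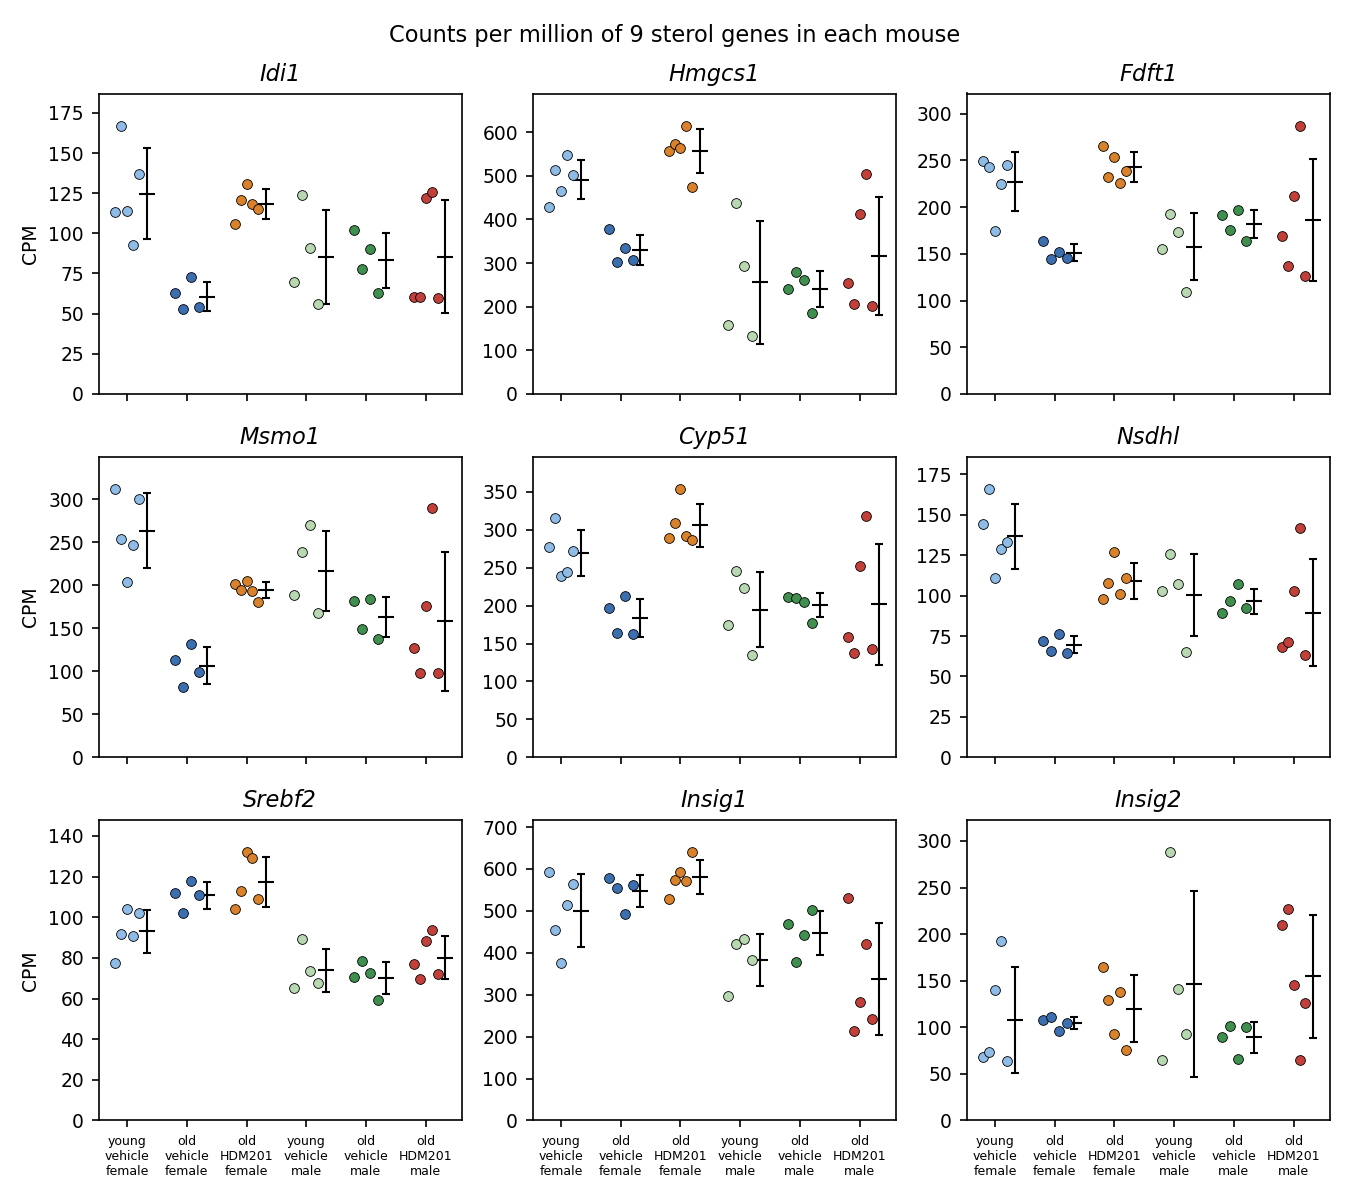
CPM (linear axes from 0) of 9 sterol genes in each mouse, by group, with the group mean ± SD to the right of the points. The 6 enzyme genes of the upper rows separate old vehicle from old HDM201 females, and Srebf2 and Insig1 do not.

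Genes around the pathway were counted in the same way, beside the same 2.35% of all genes that rose and 2.9% that fell. Of 10 other genes known to respond to SREBP2, 4 rose in HDM201 females (Fads2, Erg28, Rdh11 and Fads1) and all 10 were above 0, at a median log2 fold change of 0.32. None of the 10 genes for SREBP escort, cleavage and degradation and none of the 12 genes of the non-sterol branches passed the test. Of 12 genes of the liver X receptor (LXR) system, esterification and efflux, Abcg8, a subunit of the sterol exporter into bile, and Soat2, which esterifies cholesterol, rose, and Abcg1 fell. Markers of macrophages and Kupffer cells fell in 11 of 12 genes at a median of -1.05, and their sum was 328 to 530 CPM in HDM201 females against 533 to 1090 CPM in old vehicle females. Cholangiocyte markers rose in 2 of 6 genes (Spp1 and Epcam), with sums of 84.5 to 151 against 49.7 to 71.7 CPM. Of 8 fasting genes Cpt1a and Fgf21 rose. Of 15 clock genes Cry1 fell, while their log2 fold changes ran from -1.68 to 2.06. None of the 8 feeding genes passed, at a median of -0.29, and none of the 9 hepatocyte genes. Cd79b of 6 B cell markers and Cdh5 of 6 endothelial markers fell. Their part in the rise of the sterol genes was not tested.

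With HDM201 in old males, edgeR called 0 of the 27 genes, beside 0.00709% of all 14109 genes called in either direction. The median log2 fold change was -0.02, against 0.01 over all genes, and 11 of the 27 were above 0. At an unadjusted p under 0.05 there was 1 of the 27 genes, Insig2, beside 1710 of all 14109 genes, and DESeq2 also called 0 of the 27. In none of the 27 genes were the male groups free of overlap, beside 1.52% of all genes with every HDM201 male higher and 2.51% with every one lower.

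The HDM201 males were widely spread. In 20 of the 27 genes the whole range of the 4 vehicle males lay inside the range of the 5 HDM201 males, which held for 23.3% of all genes tested, and in females it held for 3 of the 27 and 21.3% of all genes. Idi1 read 102, 77.6, 90.2 and 62.7 CPM in the old vehicle males and 60.2, 60.1, 122, 126 and 59.5 CPM in the HDM201 males. Mice 3 and 4 were above all vehicle males and mice 1, 2 and 5 below them, with a log2 fold change of 0.05 (-0.48 to 0.57). Msmo1 read 182, 149, 184 and 138 CPM with vehicle and 127, 98.3, 176, 290 and 98 CPM with HDM201 (-0.04, -0.62 to 0.55). Mouse 4 was the highest HDM201 male in 19 of the 27 genes and mouse 5 the lowest in 17.

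The largest changes in males were in the INSIG genes and Hmgcs1. Insig2 read 89.1, 101, 66.2 and 100 CPM in vehicle and 210, 227, 145, 65.1 and 126 CPM in HDM201 males, with a log2 fold change of 0.80 (FDR = 0.345). Insig1 read 468, 377, 442 and 502 CPM and then 530, 214, 282, 421 and 243 CPM (-0.39, FDR = 0.531). The groups overlapped in both genes. The ratio of Insig1 to Insig2 counts was 3.74 to 6.67 in vehicle males and 0.945 to 6.47 in HDM201 males. Hmgcs1 read 240, 280, 261 and 185 CPM and then 255, 206, 412, 505 and 202 CPM (0.40, FDR = 0.576). Srebf2 read 70.4, 78.4, 72.4 and 59.5 CPM with vehicle and 76.8, 69.4, 88.4, 93.8 and 72.2 CPM with HDM201 (0.20, FDR = 0.496).

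No gene of the lists around the pathway passed in males, where 1 of all 14109 genes was called. Log2 fold changes of the clock genes still ran from -1.22 to 2.86, with 11 of 15 below 0. Feeding genes had a median of -0.54, with 7 of 8 below 0. The sums of marker lists also varied between the 5 HDM201 males. Feeding genes summed to 3900, 3770, 5180, 3700 and 1700 CPM in mice 1 to 5, hepatocyte markers to 119000, 166000, 144000, 116000 and 90300 CPM, and macrophage markers to 414, 345, 500, 422 and 897 CPM. Mouse 5, lowest in most sterol genes, was lowest in the first and second sums and highest in the third. Mouse 4, highest in most sterol genes, had the highest cholangiocyte sum, 202 CPM. The part of these in the spread was not tested.

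**Figure D3:**
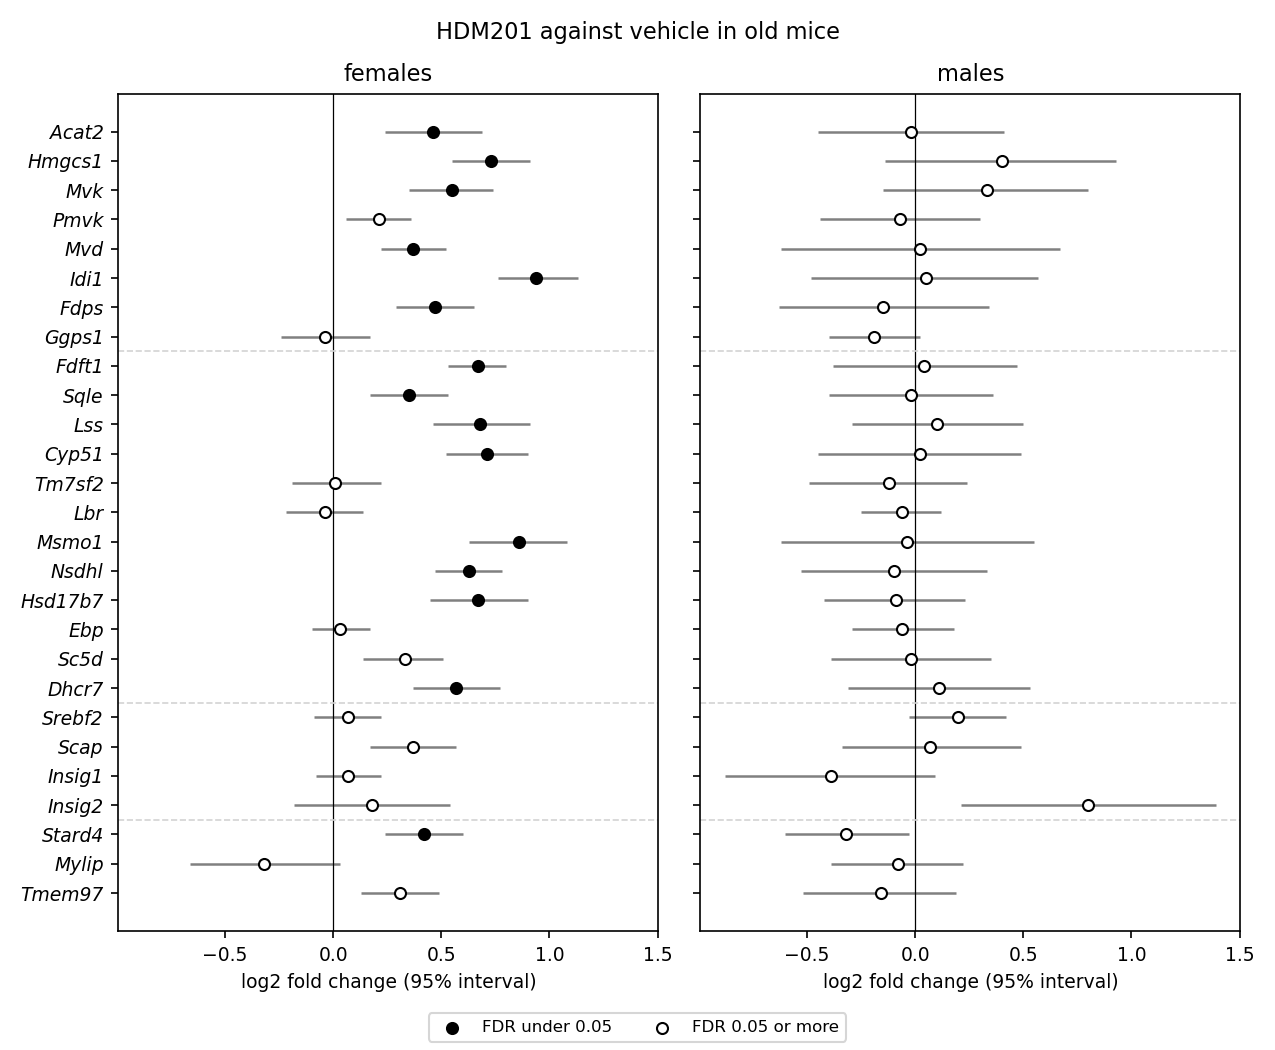
Log2 fold change of HDM201 against vehicle in old females (left) and old males (right) for the 27 genes, ordered by role from mevalonate steps to transport with dashed lines between roles. Bars are approximate 95% intervals from the standard error and a normal multiplier. Filled points have an FDR under 0.05, which 15 genes reach in females and 0 in males.

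The difference between the sexes was tested as an interaction over the 4 old groups. No gene of the 27 was called, beside 0.107% of all 14974 genes, although 24 were above 0 (a higher effect in females) and the median was 0.38. At an unadjusted p under 0.05 there were 10 of the 27 genes, beside 2774 of all 14974 genes, and DESeq2 called 2 of the 27. The effects of Idi1 and Msmo1 differed most, by 0.90 ± 0.3 (SE, FDR = 0.127) and 0.90 ± 0.34 (SE, FDR = 0.164) on the log2 scale. Hsd17b7 differed by 0.77 ± 0.21 (SE, FDR = 0.079), and its male values were 70.4, 66.1, 72.2 and 68.1 CPM with vehicle and 58.2, 51.7, 79.1, 85.4 and 47.9 CPM with HDM201. The lowest FDR was that of Stard4, 0.0629, at a difference of 0.74. Its male values were 104, 138, 138 and 146 CPM with vehicle and 103, 89.8, 126, 124 and 82.3 CPM with HDM201, with mice 2 and 5 lowest. Without HDM201 male 4 the interaction called 8 genes and its median was 0.58, and without old vehicle female 3 or old vehicle male 2 it called 1. The share of all genes called in those fits and with DESeq2 is not given here, so these counts cannot be set beside it.

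In vehicle females, 20 of the 27 genes were lower in old than in young mice and 1, Srebf2, was higher. Of all 14233 genes, 15% were lower and 16.8% higher. The median log2 fold change of the 27 was -0.55, against 0.01 over all genes, and in 17 of them every old mouse was below every young mouse, as in 13.6% of all genes. By role, 6 of 8 mevalonate genes, 11 of 12 sterol genes, 2 of 3 transport genes and Scap were lower. This comparison and that of HDM201 in females share the old vehicle females, so their values are given side by side and not correlated.

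Msmo1 had the largest difference. It read 312, 254, 204, 247 and 300 CPM in the young females, against the 4 old values given above, a log2 fold change of -1.29 ± 0.15 (SE, FDR = 0.000111). Idi1 read 113, 167, 114, 92.5 and 137 CPM in young females, with a log2 fold change of -1.02 ± 0.16 (SE, FDR = 0.000603). Nsdhl read 144, 166, 111, 129 and 133 CPM in young females (-0.95, FDR = 0.000103). In all 3 genes the lowest young mouse was above the highest old mouse. Mvk, Dhcr7, Fdps and Tmem97 followed at -0.84, -0.81, -0.79 and -0.79.

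Srebf2 went the other way. It read 77.7, 91.5, 104, 90.6 and 102 CPM in young females, against 102 to 118 CPM in old vehicle females, with young mouse 3 inside the old range and a log2 fold change of 0.27 ± 0.09 (SE, FDR = 0.0352). Its call held in 6 of the 17 alternatives run on it. Insig1 read 593, 455, 376, 513 and 565 CPM in young females (0.15, FDR = 0.376), within reach of the old values. Mvd, Ggps1, Lbr, Insig2 and Mylip did not pass, with log2 fold changes between -0.23 and 0.21. Insig2 varied widely in young females, at 67.9, 74, 140, 193 and 63.5 CPM, and little in old ones, at 108, 111, 95.6 and 105 CPM.

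Other lists were counted with age in females as well, beside 16.8% of all genes that were higher and 15% that were lower. Of the 10 other SREBP2-responsive genes 7 were lower, led by Fabp5, Erg28, Rdh11 and Acss2, and none was higher. Of 15 clock genes 3 were higher and 7 lower, with log2 fold changes as large as 3.47 in Npas2 and -3.22 in Ciart. Of 8 feeding genes 4 were lower (Thrsp, Pklr, Me1 and Elovl6) and Pnpla3 was higher. Macrophage markers were higher in 11 of 12 genes, with sums of 329 to 482 CPM in young and 533 to 1090 CPM in old females. B and plasma cell markers were higher in 5 of 6 genes at a median log2 fold change of 2.22, with sums of 3.91 to 5.52 CPM in young and 17.7 to 33.7 CPM in old females. Of 8 fasting genes 2 were higher and 2 lower, which is not far from the shares of all genes. Of 9 hepatocyte markers 4 were lower, and 2 of 5 cholangiocyte and 2 of 6 stellate cell markers were higher. Their part in the lower sterol genes was not tested.

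In vehicle males the test called 0 of the 27 genes between old and young mice, beside 3.69% of all 13755 genes. The median log2 fold change was -0.01, and 13 genes were above 0. At an unadjusted p under 0.05 there were 5 of the 27 genes, beside 3007 of all 13755 genes, and DESeq2 called 2 of the 27. Without young vehicle male 2 the test called 1. Groups were free of overlap in 3 genes, Mvd and Lbr with old males higher (7.18% of all genes) and Ebp with old males lower (6.51%). The largest change was that of Mvd, which read 20.5, 32.5, 25.6 and 17.2 CPM in young and 32.8, 41.8, 48.5 and 33.2 CPM in old males. The groups did not overlap, at a log2 fold change of 0.72 (FDR = 0.0698). Insig2 read 64.6, 288, 141 and 92.7 CPM in young males (-0.70, FDR = 0.318), with mouse 2 far above the other mice. Pmvk read 80.9, 70.5, 62.9 and 37.3 CPM in young and 91.4, 80.7, 90.2 and 88.5 CPM in old males (0.50, FDR = 0.166). Young male 4 was the lowest of its group in 20 of the 27 genes and young male 2 the highest in 17. In old males, B and plasma cell markers were higher in 4 of 5 genes tested, macrophage markers in 4 of 12, and 1 gene each of the feeding, cholangiocyte, stellate cell and T and NK cell lists was higher.

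**Figure D4:**
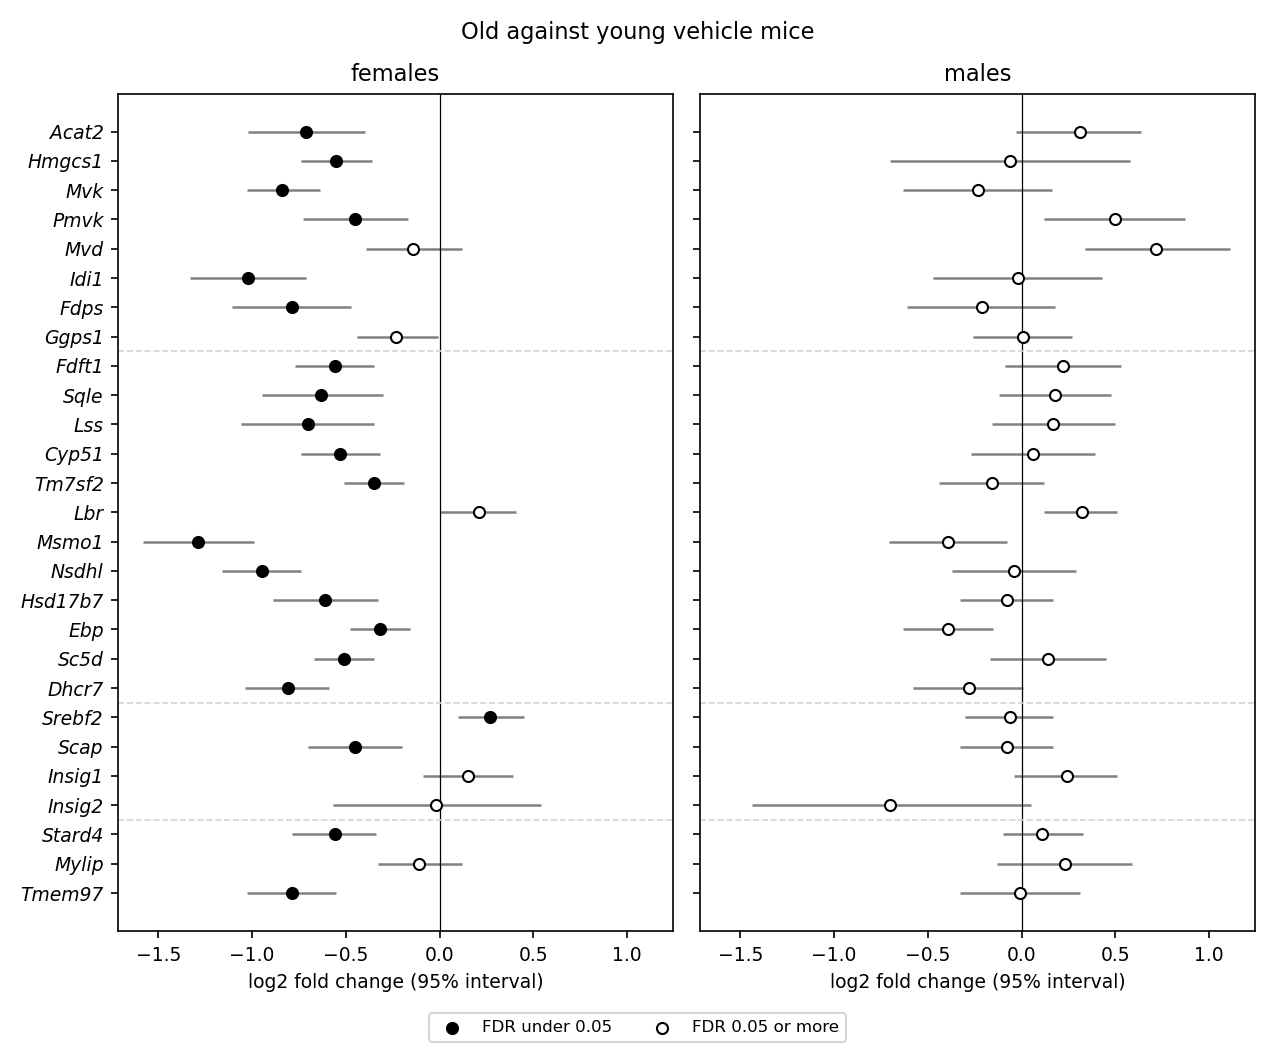
Log2 fold change of old against young vehicle mice in females (left) and males (right) for the 27 genes, ordered by role with dashed lines between roles. Bars are approximate 95% intervals from the standard error and a normal multiplier. Filled points have an FDR under 0.05, which 21 genes reach in females and 0 in males.

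The effect of age differed between the sexes in 7 of the 27 genes, all with the more negative fold change in females, beside 1.9% of all 14721 genes that were called in that direction. The median difference was -0.57. Acat2 differed by -1.0 ± 0.25 (SE, FDR = 0.0359). It read 143, 215, 113, 154 and 174 CPM in young females, 110, 126, 111 and 66.3 CPM in young males and 128, 126, 137 and 115 CPM in old males. The old vehicle females, given above, lay below all young females, while old and young males overlapped. Pmvk differed by -0.93 (FDR = 0.0492) and read 100, 107, 79.5, 114 and 145 CPM in young and 79.5, 88.1, 74.5 and 72.7 CPM in old females, which overlapped.

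Nsdhl differed by -0.90 (FDR = 0.0273) and read 103, 126, 107 and 65.4 CPM in young and 89.5, 96.9, 107 and 92.6 CPM in old males. Msmo1 differed by -0.88 (FDR = 0.0444) and read 189, 239, 270 and 168 CPM in young males, of which mice 1, 2 and 3 were above all old males and mouse 4 was within their range. Fdft1 differed by -0.77 (FDR = 0.0371), with 249, 243, 174, 225 and 245 CPM in young females, 155, 193, 173 and 109 CPM in young males and 191, 175, 197 and 164 CPM in old males. In these 3 genes the old and young males overlapped. Stard4 differed by -0.66 (FDR = 0.035), with 158, 169, 137, 122 and 127 CPM in young females and 121, 127, 125 and 117 CPM in young males. Sc5d differed by -0.64 (FDR = 0.0491). It read 896, 955, 893, 910 and 1000 CPM in young and 721, 635, 611 and 609 CPM in old females, and 616, 734, 628 and 450 CPM in young and 564, 779, 619 and 689 CPM in old males. The young females were the highest of these 4 groups. The count of 7 rested on single mice: it was 11 without young female 3, 0 without old vehicle female 1, 2 or 4 or old vehicle male 4, 1 without young female 1 or 2 or young male 4, 2 without young female 5, 3 without young male 3, and 4 without young female 4, old vehicle female 3 or old vehicle male 2 or 5.

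Among young vehicle mice, 5 of the 27 genes were higher in females than in males and none was lower, beside 5.63% of all 13875 genes that were higher and 4.91% that were lower. The median log2 fold change was 0.46, against 0.00 over all genes, and 25 genes were above 0. Mvd differed most, at 50.7, 53, 37.2, 63.4 and 59.2 CPM in females against 17.2 to 32.5 CPM in males, with no overlap and a log2 fold change of 1.13 ± 0.19 (SE, FDR = 0.00327). Pmvk (0.79, FDR = 0.0338), Sc5d (0.61, FDR = 0.0137), Tm7sf2 (0.53, FDR = 0.0279) and Scap (0.48, FDR = 0.0355) were the other four. Hmgcs1 read 429, 514, 466, 547 and 502 CPM in young females and 159, 438, 294 and 132 CPM in young males, and its 0.94 missed the threshold (FDR = 0.0566) with a wide male spread. The count was 12 without young male 2, 8 without young female 3, 3 without young female 1 or young male 4, and 2 without young female 2, 4 or 5 or young male 3. These counts are given without the share of all genes called in the same fits. Macrophage markers were also higher in young females, in 9 of 12 genes, with sums of 329 to 482 CPM against 149 to 304 CPM in young males. Endothelial markers were higher in 3 of 6 genes, cholangiocyte markers in 2 of 5 and stellate cell markers in 2 of 6. Of the 8 feeding genes 1 passed the test, and all 8 were above 0 at a median log2 fold change of 1.13. The part of these lists in the sterol difference was not tested.

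Old HDM201 females were also set against young vehicle females, a comparison that shares mice with both female comparisons above. Of the 27 genes 7 were lower and 1, Srebf2, was higher, beside 12.6% and 14.2% of all 13995 genes. The median log2 fold change was -0.19, against 0.01 over all genes. Tmem97 read 142, 140, 92.6, 115 and 131 CPM in young, 66.5, 64.8, 71.7 and 79.2 CPM in old vehicle and 98.6, 87.4, 85, 74.5 and 97.2 CPM in old HDM201 females, and the last differed from the first by -0.49 ± 0.12 (SE, FDR = 0.00867). The HDM201 mice overlapped both other groups. Msmo1 differed from young by -0.44 (FDR = 0.00883). The other five that were lower were Tm7sf2, Nsdhl, Mvk, Ebp and Ggps1, between -0.34 and -0.27. Mylip read 10.6, 11.2, 10.8, 12.5 and 13.2 CPM in young and 7.78, 5.8, 7.82, 11 and 10.9 CPM in HDM201 females (-0.43, FDR = 0.0594). Srebf2 was higher by 0.33 (FDR = 0.0179), and its groups did not overlap. Cholangiocyte markers were higher in 5 of 5 genes, with sums of 84.5 to 151 CPM in old HDM201 and 42.9 to 49.9 CPM in young females, and B and plasma cell markers in 5 of 6, with sums of 10.1 to 20.2 against 3.91 to 5.52 CPM. Hepatocyte markers were lower in 5 of 9 genes and feeding genes in 5 of 8. Their part in the difference was not tested.

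For Idi1, Fdft1 and Lss the approximate 95% interval of the difference between old HDM201 and young females spanned 0. That does not show that the levels were equal. It was -0.34 to 0.17 for Idi1, -0.10 to 0.29 for Fdft1 and -0.36 to 0.31 for Lss. Over the 3 female groups Idi1 was at 125 ± 28.5 CPM (SD, n = 5) in young, 60.6 ± 9.13 CPM (n = 4) in old vehicle and 118 ± 8.99 CPM (n = 5) in old HDM201 mice. Fdft1 was at 227 ± 31.2, 151 ± 9.23 and 243 ± 16 CPM in the same order. Msmo1 reached 195 ± 9.84 CPM with HDM201, between 106 ± 21.2 CPM in old vehicle and 263 ± 43.7 CPM in young females.

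**Figure D5:**
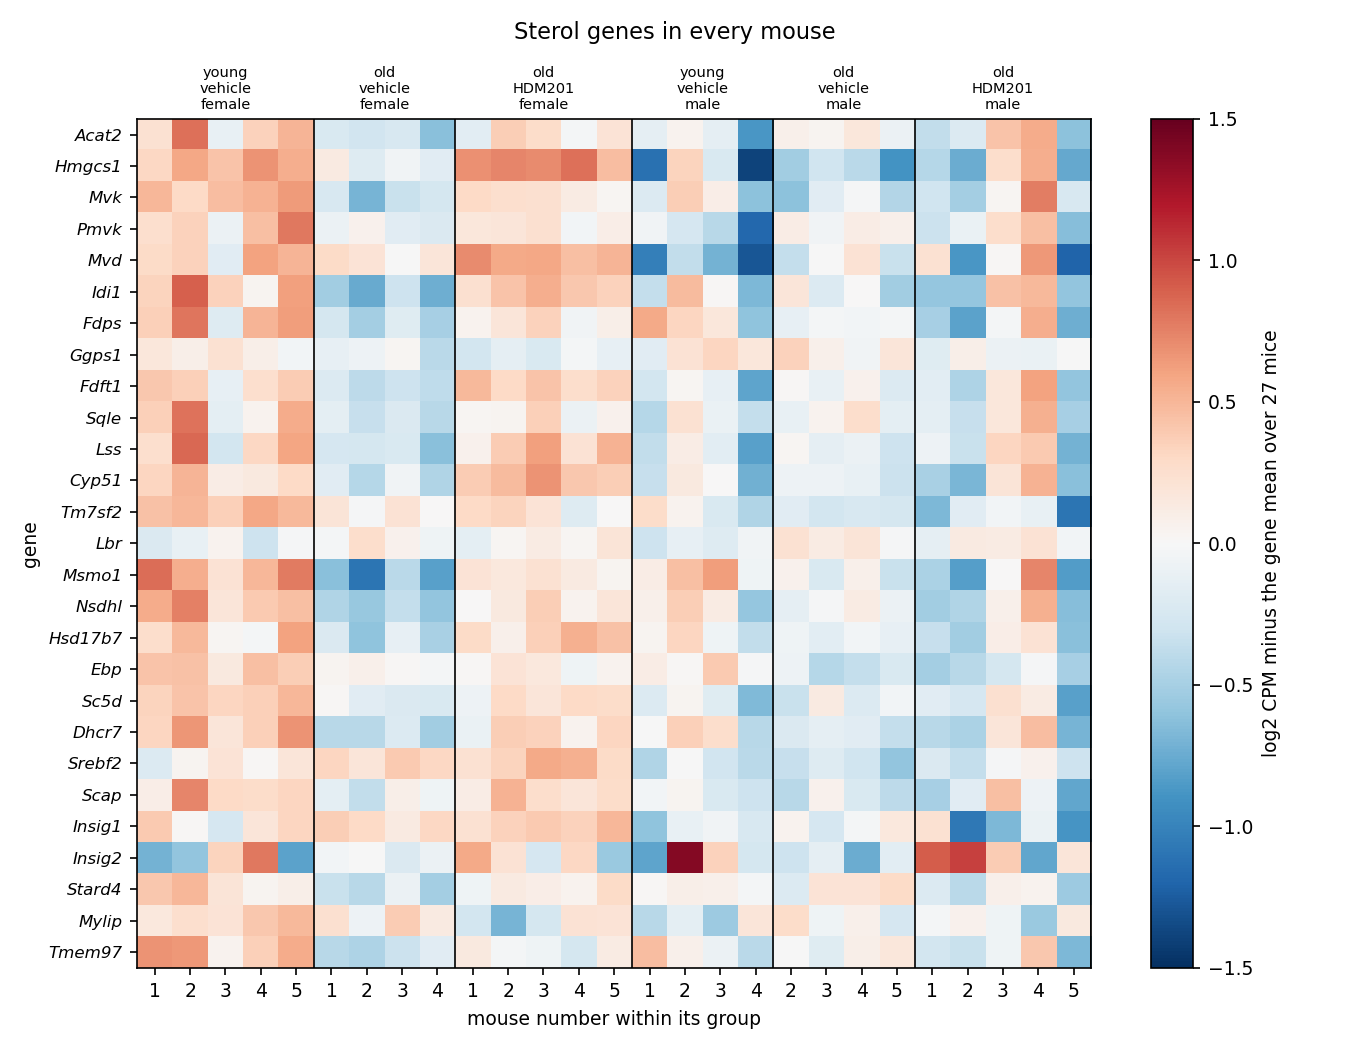
Log2 CPM of each of the 27 genes in each of the 27 mice, less the mean of that gene over all mice (color, from -1.5 to 1.5), with mice in columns by group. Old vehicle females are low and old HDM201 females high in most enzyme genes, HDM201 males 3 and 4 are high and mice 2 and 5 low in most of them, and Insig2 varies apart from the other genes.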

How the data were processed

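PolyA RNA-seq of whole liver was analysed for 27 mice. Alignment by the authors was to mm10, with STAR run in 2 passes, followed by SAMtools filtering and HTSeq gene counts. The deposited counts are raw whole numbers for 55421 genes. The deposited FPKM values were made by the authors with Cufflinks for 29 mice, and 2 of these, old vehicle male 1 and young vehicle male 5, have no column of counts and entered only the FPKM alternative. Tool versions and the strand setting are not given in the sources used here. The methods leave out 1 young male of 1 animal cohort and do not say which mouse it was. They name DESeq2 for differential expression, and ages in months differ slightly between labels and methods.

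Comparisons were fitted separately, each on the groups it names, in R 4.3.3 with edgeR 4.0.16 (filterByExpr, minimum count 10 and minimum total 15, TMM, quasi-likelihood F test). P-values were adjusted over all genes tested by Benjamini-Hochberg, with a threshold of 0.05. The 95% intervals take a normal multiplier of the standard error. With so few mice they are narrower than the F test implies, and some exclude 0 where its p is above 0.05. The fits were also run on simulated counts, with genes drawn independently and at the same spread. That setting lacks the wide spread and joint movement seen in HDM201 males, so it does not speak to the male or interaction fits. CPM (counts scaled by library size) use TMM factors over all 27 mice. Exon lengths come from GENCODE M21. Alternatives were RLE factors, DESeq2 1.42.0, no filter, all 6 groups in 1 fit, a replicate block, a threshold of 0.01, limma 3.58.1 on log2(FPKM + 1) and log2(FPKM + 0.1) with a minimum FPKM of 0.1 and empty cells read as 0, and leaving out each mouse. All 27 genes were to be named. Values of every mouse were printed for genes called with HDM201 or in an interaction, for the 3 largest changes of each comparison, and for Srebf2 and Insig1. The genes and lists were chosen with earlier results of these data known.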

Additional observations from a re-analysis of the deposited data

Results flagged for a closer look

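In 6 of 162 groups of 4 or 5 mice, 1 mouse stood far from the others of its group, where chance flags about 1 in 20 groups. Acat2 read 78.8 CPM in old vehicle female 4 against 99.6 to 104 CPM in the other three, and Lss read 82.1 CPM in the same mouse against 106 to 108 CPM. Fdft1 read 174 CPM in young vehicle female 3 against 225 to 249 CPM, and Ebp read 294 CPM in the same mouse against 342 to 362 CPM. Fdps read 256 CPM in old vehicle male 2 against 272 to 275 CPM, and Cyp51 read 177 CPM in old vehicle male 5 against 205 to 211 CPM.

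The effect of age differed between females and males by an interaction test (edgeR, FDR under 0.05 over all genes tested) in 7 genes. Of all 14721 genes, 1.9% were called in the same direction. The count was not firm, as leaving out single mice gave 0 to 11. The old females were 20 months and the old males 24 months of age. The difference of the log2 fold changes, females less males, was -1.0 for Acat2, -0.93 for Pmvk, -0.90 for Nsdhl, -0.88 for Msmo1, -0.77 for Fdft1, -0.66 for Stard4 and -0.64 for Sc5d.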

How the results depend on the processing

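No called value changed sign under any alternative run. The share of all genes called is given here only for the main fits, so counts under the alternatives have no such share beside them. The calls with HDM201 in females (15) fell to 2 with all 6 groups in 1 fit and to 7 at a threshold of 0.01, and ran from 9 to 16 when single mice were left out. With age in males (0) DESeq2 called 2, all 6 groups in 1 fit 2 and no filter 1, and leaving out mice gave 0 to 1. Between the sexes in young mice (5) DESeq2 called 12, no filter 11, all 6 groups in 1 fit 11, a threshold of 0.01 called 1, both FPKM settings 2, and leaving out mice 2 to 12. For old HDM201 against young females (8) all 6 groups in 1 fit called 4, a threshold of 0.01 called 2 and both FPKM settings 5. For the interaction of sex and HDM201 (0) DESeq2 called 2, no filter 1, and leaving out mice 0 to 8, with medians of 0.28 to 0.58. For the interaction of sex and age (7) DESeq2 called 12, no filter 11, all 6 groups in 1 fit 4, the replicate block 0, a threshold of 0.01 called 0 and both FPKM settings 0, and leaving out mice 0 to 11. Its median of -0.57 was -0.35 with log2(FPKM + 1) and -0.37 with log2(FPKM + 0.1). Apart from fewer mice, a stricter threshold and the 26 of 27 genes that FPKM could test, since Mvd has empty FPKM cells in all mice, the cause of these moves was not tested.

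Mice that share a number across groups are different mice, and their deviations from group means correlated at -0.23 to 0.24, so the numbers were not taken as pairs. With the number as a replicate block the calls were 12 with HDM201 in females, 19 with age in females, 4 between the sexes in young mice and 0 in males. In each comparison at most 2 mice correlated best with their own number. Each of the 27 genes had at least 106 counts in every mouse.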
